A study of Mus musculus with 6 samples.

Results

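The vacuolar proton pump and the ion channels of the lysosome membrane were taken as a set of 32 genes from the 53800 genes of the count table. Membership went by name and not by measured values. It covers every protein-coding gene whose symbol begins with Atp6v or Atp6ap, together with Tcirg1, Clcn3, Clcn5, Clcn6, Clcn7, Ostm1 and Mcoln1. The set holds 13 genes of the V1 sector, 10 of the V0 sector, 3 accessory proteins, 4 chloride-proton exchangers with their partner Ostm1, and the cation channel Mcoln1. In all, 25 of the 32 had enough counts to be tested, and the other 7 are given by their counts.

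RNA was sequenced from NCTC 1469 cells, an established mouse cell line that the labels call wild-type hepatocytes. In the simulated microgravity group (3 libraries) the cells grew for 6 days on a random positioning machine, a device that keeps turning the culture so that the direction of gravity averages out. The normal gravity group (3 libraries) also grew for 6 days. The series title names melatonin, a treatment that no label of these 6 samples gives. The count columns are named with C or R and a number. C was read as the normal gravity control and R as the random positioning machine. The labels do not state this, and all directions in the text depend on it. No label says that the 3 libraries of a group came from separate cultures, so the p-values measure the spread between libraries, which may be technical.

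The vacuolar ATPase is a rotary motor. Its cytosolic V1 sector splits ATP and turns a rotor, and its V0 sector in the membrane carries protons into the lysosome, endosome or Golgi. Chloride-proton exchangers of the CLC family move the counter-charge that lets the compartment acidify, and the mucolipin channels release calcium and other cations from it. In hepatocytes the pump serves lysosomes and endosomes, whereas macrophages and osteoclasts, which are specialised in digestion and acid secretion, are known for high levels of it.

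The libraries held 30474792 to 34318208 counts each. Normal gravity replicate 1 stood apart. Across genes its log2 CPM correlated at 0.936 with both other normal gravity libraries, which correlated with each other at 0.985. With the simulated microgravity libraries it correlated at 0.943 to 0.946, slightly higher than with its own group. The deviation of normal gravity replicate 1 from the others of its group ran with gene length. Results are therefore given from all 6 libraries and again without it. The cell type label was checked against markers. Of 10 hepatocyte markers, 7 (Alb, Apob, Hnf4a, Fgb, Tat, Cps1 and Asgr1) had 0 counts in all libraries. Of 10 macrophage markers, 9 passed the filter on low counts and Mrc1, with 7 to 12 counts in a library, did not. Csf1r stood between 2496 and 2552 CPM in simulated microgravity and between 2153 and 2217 CPM at normal gravity. The label hepatocyte is therefore not borne out by its markers, and the cells are called by the name of the line.

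With all 6 libraries, none of the 25 tested pump and channel genes passed the threshold (edgeR quasi-likelihood test, two-sided, Benjamini-Hochberg adjusted p under 0.05 over all genes), in a comparison that called 1.16% of 14509 genes higher and 0.365% lower in simulated microgravity. At an unadjusted p under 0.05 the members gave 8 higher and 0 lower, where all genes gave 8.55% higher and 7.48% lower. DESeq2 with all 6 libraries called 3 of the 26 members that it gave an adjusted p higher, namely Atp6v0a2, Ostm1 and Mcoln1, and 0 lower, where it called 3.63% of 16345 genes higher and 2.26% lower. Limma-voom called 0 members, where it called 1.28% of 14509 genes higher and 0.338% lower. The log2 fold change lay above 0 for 24 of the 25, with a median of 0.33, and the median of all tested genes was -0.02. In 11 members every simulated microgravity library lay above every normal gravity library and in 0 every one lay below. Over all genes 14.4% lay wholly above and 12.9% wholly below.

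Without normal gravity replicate 1, 17 members were higher and 1, Clcn3, was lower, by the same edgeR test. That comparison of 3 against 2 libraries called 15.7% of 14809 genes higher and 15.1% lower. The 17 were spread over the pump: 7 of the 9 tested V1 genes, 6 of the 8 tested V0 genes, 1 of the 2 tested accessory genes, Clcn7, Ostm1 and Mcoln1. The median log2 fold change of the 25 was 0.43, and that of all tested genes 0.01. Where a member is called higher or lower in what follows, it is in this comparison, since none passed in edgeR with all 6 libraries. On simulated data, 6 libraries let 1 out of 67 genes with a 1.5-fold difference pass. A missing call with 6 libraries therefore does not show that a difference is absent.

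**Figure D1:**
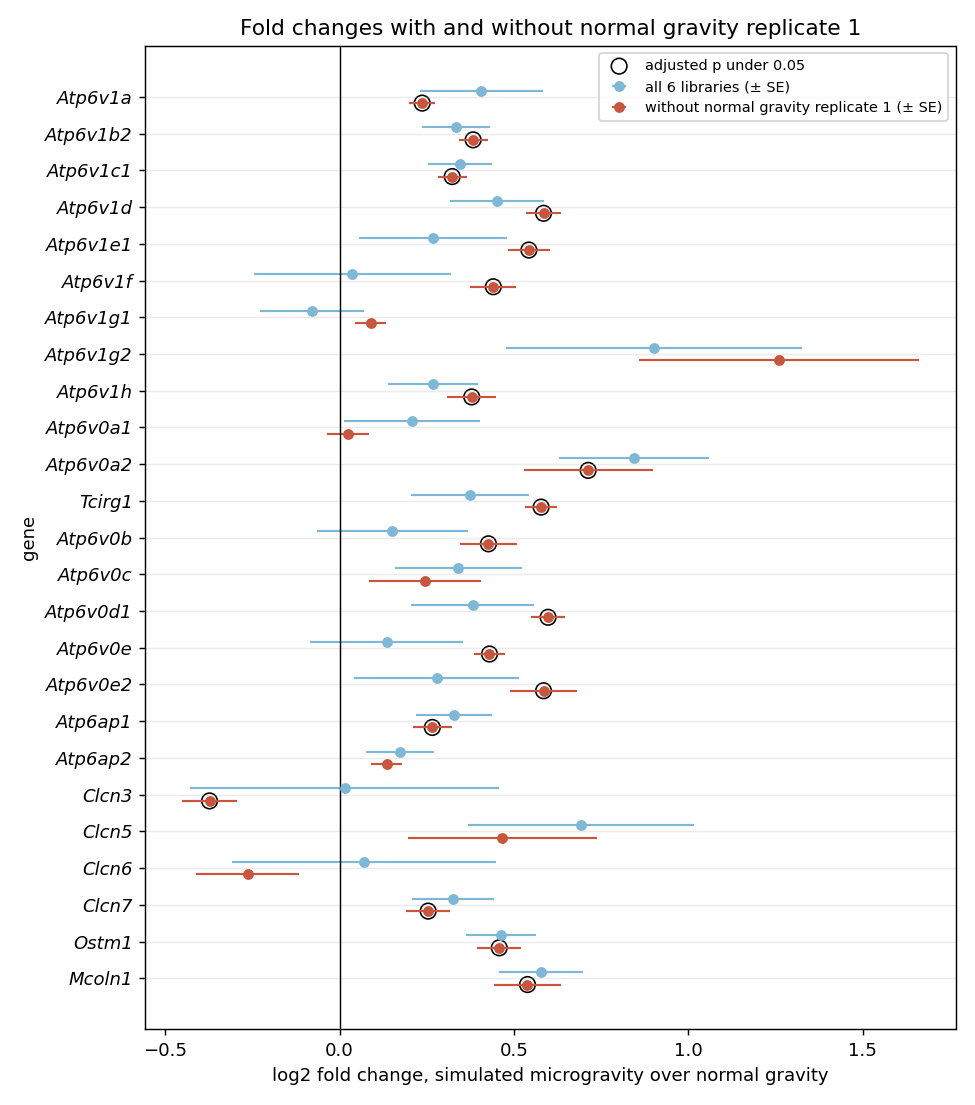
Log2 fold change of each of the 25 tested members, simulated microgravity over normal gravity, from all 6 libraries and without normal gravity replicate 1, with bars of 1 SE and circles around values with an adjusted p under 0.05, ordered by role. With 6 libraries 24 of 25 values lie above 0 and none passed the adjusted threshold, and without that library the bars shorten and 17 members are called higher and Clcn3 lower.

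Markers of other cells were summed for each library. The summed level of the 10 macrophage markers was 10033, 9734 and 11150 CPM in simulated microgravity, against 10286, 6183 and 6323 CPM at normal gravity. None of these markers was at 0, though Mrc1 was near it, and with 6 libraries 0 passed in edgeR (unadjusted p under 0.05 in 2, both higher). Without normal gravity replicate 1, 5 were higher and 0 lower. The summed level of the 8 osteoclast markers was 3371, 3045 and 3622 CPM in simulated microgravity, against 1394, 866 and 817 CPM at normal gravity. Nearly all of it came from Ctsk, and the 5 tested genes of the list differed in sign, with a median log2 fold change of 0.10 with 6 libraries and -0.05 without normal gravity replicate 1. With 6 libraries 1 was called higher (Ctsk) and 0 lower, and without that library 1 higher (Ctsk) and 1 lower (Mmp9). Calcr was at 0 in every library and so was Atp6v0d2, the d subunit isoform for which osteoclasts are known. The parts that these lists had in the values of the pump were not tested, and in bulk RNA a change in the number of cells of a type cannot be told apart from a change in RNA per cell.

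Many lysosomal genes of mammals carry the letters CACGTG ahead of their start, where the transcription factors TFEB and TFE3 bind. The motif reads the same on both strands. It was searched in RefSeq promoters of GRCm38.p6 (250 bases before to 50 after the start), in which 25 of the 32 members had an entry. CACGTG stood in 7 of the 25 members (28%), against 2187 of 27025 genes in the promoter table (8.09%) and 11.6% of the tested genes. Its longer form TCACGTGA, which contains it, stood in 6 of the 25 (24%), against 1.12% of all genes in that table and 2.14% of the tested genes. The 7 members were Atp6v1a, Atp6v0b, Atp6v0d1, Atp6v0e, Clcn6, Clcn7 and Mcoln1, and each of these but Atp6v0b held the longer form. Start means here and below the start of the RefSeq entry, which can differ from that of the listed gene coordinates. By those coordinates Atp6v1a begins at 44139705 on the minus strand and Mcoln1 at 3500457 on the plus strand. The Atp6v1a match and the nearer Mcoln1 match thus lie inside the gene as listed. The windows shown were chosen because the match lies wholly ahead of the RefSeq start. Capitals mark CACGTG, and each window is read 5′ to 3′ on the strand of the gene.
Atp6v1a (chr16:44139358-44139417, minus strand): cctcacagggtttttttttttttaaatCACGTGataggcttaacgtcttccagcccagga
Atp6v0b (chr4:117887330-117887392, minus strand): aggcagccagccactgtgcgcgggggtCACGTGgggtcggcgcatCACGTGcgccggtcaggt
Clcn6 (chr4:148038814-148038888, minus strand): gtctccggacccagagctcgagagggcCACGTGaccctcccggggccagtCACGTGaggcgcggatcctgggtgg
Clcn7 (chr17:25133349-25133390, plus strand): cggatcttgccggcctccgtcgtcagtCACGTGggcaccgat
Mcoln1 (chr8:3500421-3500506, plus strand): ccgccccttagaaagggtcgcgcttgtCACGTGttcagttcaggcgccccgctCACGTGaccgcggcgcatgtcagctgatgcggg

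In Atp6v0b, Clcn6 and Mcoln1 a pair of matches stood ahead of the RefSeq start, the nearer one 18, 25 and 45 bases before it. Atp6v1a held 1 match 131 bases before the start, and Clcn7 1 match 15 bases before it and another just after it. The match in Atp6v0d1 spanned the start, and that in Atp6v0e began 3 bases after it. Without normal gravity replicate 1, 6 of the 7 members with CACGTG were higher, with a median log2 fold change of 0.43. The 13 other tested members with a promoter entry had 7 higher, 1 lower and a median of 0.46, so the members with and without the letters had similar medians. Clcn6, with 2 matches, was not called. A match describes these letters alone, and whether a factor binds there or acts on the gene was not tested. With the 250 bases before the start alone, TCACGTGA stood in 3 of 25 members (12%). It stood there in 0.907% of all genes in the promoter table and in 1.75% of the tested genes.

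The head of V1 is a ring of alternating A and B subunits, in which A splits ATP. Atp6v1a (chromosome 16, 44085402 to 44139705, minus strand, in GRCm38 coordinates as the table lists them), which encodes A, had 250.3, 245 and 251 CPM in simulated microgravity, against 139.8, 211 and 212 CPM at normal gravity. All simulated microgravity libraries lay above all normal gravity ones, and normal gravity replicate 1 lay far below its own group. With all libraries Atp6v1a had a log2 fold change of 0.41 (SE 0.177, edgeR adjusted p = 0.333), and without normal gravity replicate 1 one of 0.24 (SE 0.0368, edgeR adjusted p = 0.00592). Atp6v1b2, the B subunit found in most tissues, had 248, 247 and 259.8 CPM in simulated microgravity, against 212, 193 and 193 CPM at normal gravity. Its groups did not overlap and each was tight. In log2 units the difference was 0.33 (SE 0.0965, edgeR adjusted p = 0.163) over 6 libraries and 0.38 (SE 0.0415, edgeR adjusted p = 0.00187) over the 5 without normal gravity replicate 1. Its kidney counterpart Atp6v1b1 had 0 counts in every library, which allows up to 0.0154 CPM over the 6 libraries (3 counts, counting error only).

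Subunits C and H steady and regulate the joint between the sectors. Atp6v1c1 had 321, 327 and 334 CPM in simulated microgravity, against 249, 269 and 256 CPM at normal gravity, with no overlap and a narrow range in both groups. Atp6v1c1 differed by 0.34 (SE 0.0916, edgeR adjusted p = 0.137) on the log2 scale with 6 libraries and by 0.32 (SE 0.0415, edgeR adjusted p = 0.00317) without normal gravity replicate 1. Atp6v1h, whose product silences V1 once it has left the membrane, had 146, 153 and 163 CPM in simulated microgravity, against 147, 125 and 113 CPM at normal gravity. Here normal gravity replicate 1 lay among the simulated microgravity libraries and the other two below them. Fitted to 6 libraries, its log2 fold change was 0.27 (SE 0.13, edgeR adjusted p = 0.391), and without normal gravity replicate 1 it was 0.38 (SE 0.0698, edgeR adjusted p = 0.0104). Counts of Atp6v1b2 and Atp6v1h could hold reads of a neighbour on the other strand, Slc18a1 over 590 bases and Rgs20 over 268 bases, since the strand setting of the counting is not given in the sources used here. Those neighbours had 145 and 74 counts over all libraries.

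The rotor of V1 is built of D and F. Atp6v1d had 119.8, 119.6 and 125 CPM in simulated microgravity, against 104, 80.4 and 82.0 CPM at normal gravity. Its groups did not overlap, and normal gravity replicate 1 was the highest of its group. The log2 fold change was 0.45 (SE 0.135, edgeR adjusted p = 0.176) with 6 libraries and 0.58 (SE 0.0491, edgeR adjusted p = 0.000837) without normal gravity replicate 1. Atp6v1f had 107, 107 and 118 CPM in simulated microgravity, against 160.0, 83.5 and 79.3 CPM at normal gravity. Normal gravity replicate 1 exceeded every other library and the 2 others of its group lay below all of simulated microgravity, so the groups overlapped. With all libraries Atp6v1f had a log2 fold change of 0.04 (SE 0.283, edgeR adjusted p = 0.972), and without normal gravity replicate 1 one of 0.44 (SE 0.0655, edgeR adjusted p = 0.00508).

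The outer stalks, which keep the head from turning with the rotor, are pairs of E and G. Atp6v1e1 had 222, 227 and 247 CPM in simulated microgravity, against 259, 163 and 155 CPM at normal gravity. Again the first normal gravity library was the highest of all and the other two the lowest. In log2 units the difference was 0.27 (SE 0.212, edgeR adjusted p = 0.615) over 6 libraries and 0.54 (SE 0.0593, edgeR adjusted p = 0.00192) over the 5 without normal gravity replicate 1. Atp6v1g1, the G isoform of most tissues, had 194, 199 and 206 CPM in simulated microgravity, against 256, 189.9 and 186 CPM at normal gravity. It was the 1 tested member whose 6-library log2 fold change lay below 0, and it was called in neither fit. Atp6v1g1 differed by -0.08 (SE 0.15, edgeR adjusted p = 0.856) on the log2 scale with 6 libraries and by 0.09 (SE 0.0443, edgeR adjusted p = 0.18) without normal gravity replicate 1.

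Tissue-restricted isoforms of V1 were at or near the detection limit. Atp6v1g2, the neuronal G isoform, had 35, 36 and 35 counts in simulated microgravity, against 27, 10 and 20 counts at normal gravity. These groups did not overlap, and the log2 fold change was 0.90 (SE 0.424, edgeR adjusted p = 0.374) with 6 libraries and 1.26 (SE 0.401, edgeR adjusted p = 0.0589) without normal gravity replicate 1. Its gene overlaps Nfkbil1, on the other strand, by 2133 bases, and Nfkbil1 had 3363 counts in all. The testis isoform Atp6v1e2 had 2, 7 and 9 counts in simulated microgravity and 8, 2 and 4 at normal gravity. Atp6v1c2 had 2 counts in normal gravity replicate 2 and 0 elsewhere, and the kidney isoform Atp6v1g3 had 0 in all libraries.

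**Figure D2:**
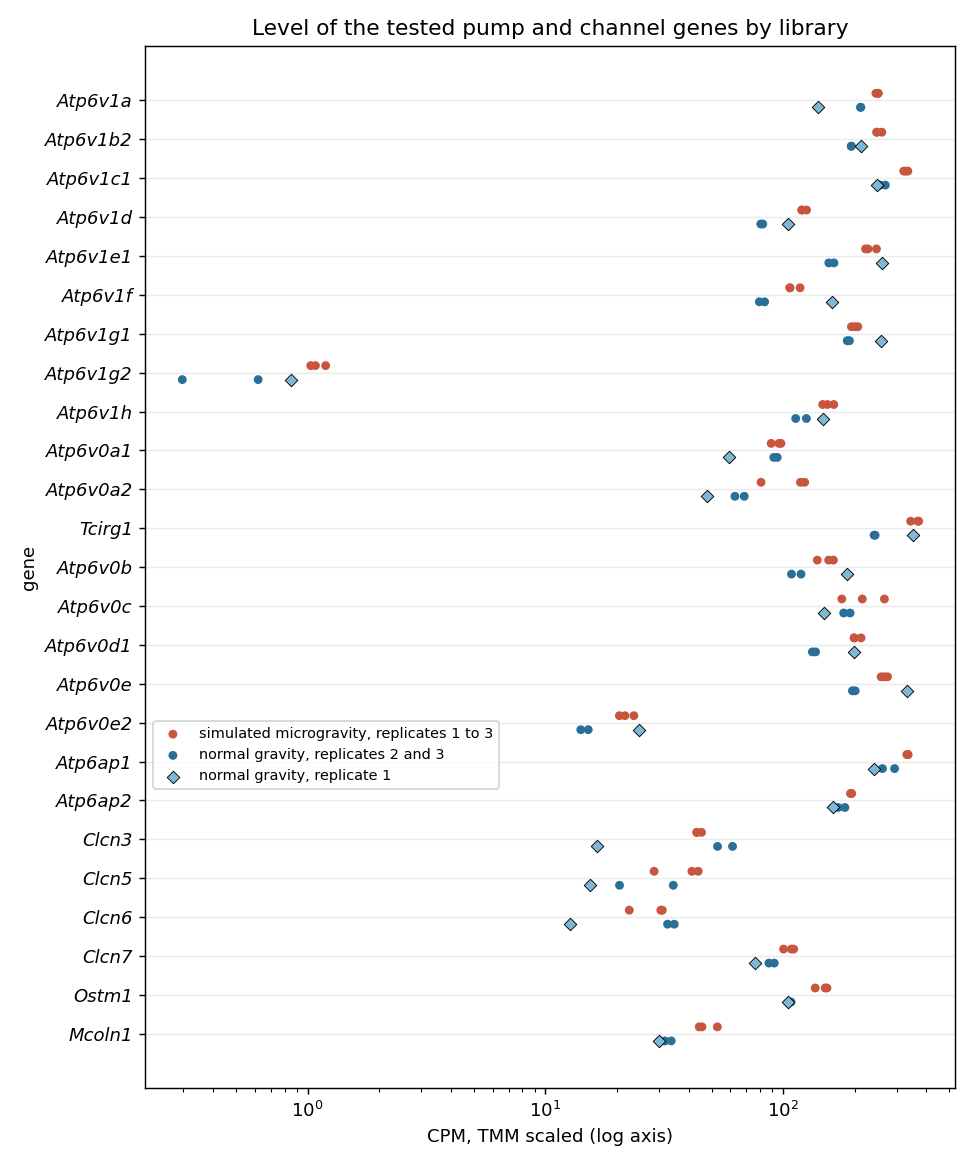
Level of each tested member in every library, in TMM-scaled CPM on a log axis, with simulated microgravity above normal gravity for each gene and normal gravity replicate 1 as a diamond. Most members lie well above Atp6v1g2, the lowest, and the diamond lies above the others of its group in 12 members and below them in 13.

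In V0, the a subunit holds the channels for protons and decides where in the cell the pump goes. Tcirg1 (chromosome 19, 3896050 to 3907133, minus strand), which encodes a3, the isoform of lysosomes and of the osteoclast border, had 368, 343 and 371 CPM in simulated microgravity, against 350.4, 243 and 241 CPM at normal gravity. Replicate 1 of normal gravity fell in the range of simulated microgravity and the other two well below it. Fitted to 6 libraries, its log2 fold change was 0.38 (SE 0.169, edgeR adjusted p = 0.354), and without normal gravity replicate 1 it was 0.58 (SE 0.0467, edgeR adjusted p = 0.00075). Its mean was 361 ± 15.2 CPM in simulated microgravity and 278 ± 62.5 CPM at normal gravity (SD, n = 3 each). Atp6v0a2 (chromosome 5, 124628576 to 124724455, plus strand), the a2 isoform of Golgi and endosomes, had 80.7, 118 and 123 CPM in simulated microgravity, against 48.0, 68.5 and 62.6 CPM at normal gravity. No libraries overlapped, but replicate 1 of simulated microgravity lay much nearer to normal gravity than the other two. The log2 fold change was 0.84 (SE 0.216, edgeR adjusted p = 0.126) with 6 libraries and 0.71 (SE 0.185, edgeR adjusted p = 0.0321) without normal gravity replicate 1. Its mean was 107 ± 23.2 CPM in simulated microgravity and 59.7 ± 10.6 CPM at normal gravity (SD, n = 3 each). DESeq2 with all 6 libraries gave 0.84 (adjusted p = 0.0214). An antisense gene overlaps Atp6v0a2 by 2459 bases and had 16 counts in all.

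Atp6v0a1, the isoform best known from neurons, had 95.9, 89.0 and 97.8 CPM in simulated microgravity, against 59.0, 91.2 and 94.3 CPM at normal gravity. Apart from the low normal gravity replicate 1, the libraries of both groups lay in the same range. With all libraries Atp6v0a1 had a log2 fold change of 0.21 (SE 0.195, edgeR adjusted p = 0.679), and without normal gravity replicate 1 one of 0.03 (SE 0.0597, edgeR adjusted p = 0.788). The kidney isoform Atp6v0a4 had 10, 0 and 2 counts in simulated microgravity and 0, 4 and 0 at normal gravity. Per kilobase of gene length, Tcirg1 gave 76.0%, 72.2% and 72.4% of the summed a subunit level in simulated microgravity, against 83.3%, 69.7% and 69.7% at normal gravity. Atp6v0a2 gave 9.48%, 14.1% and 13.7% in simulated microgravity, against 6.49%, 11.2% and 10.3% at normal gravity. Atp6v0a1 gave 14.5%, 13.7% and 13.9% in simulated microgravity, against 10.2%, 19.1% and 19.9% at normal gravity. Tcirg1 was thus the main a isoform message in every library, and the shares of all 3 isoforms overlapped between the groups. For Tcirg1 and Atp6v0a1 they overlapped through normal gravity replicate 1 alone. Against the other normal gravity libraries, the Tcirg1 share was higher and the Atp6v0a1 share lower in every simulated microgravity library. The Atp6v0a2 shares overlapped without that replicate too.

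Subunit d seats the rotor on the membrane ring. Atp6v0d1 (chromosome 8, 105524465 to 105566047, minus strand) had 198, 199 and 212 CPM in simulated microgravity, against 199, 137 and 133 CPM at normal gravity. Normal gravity replicate 1 lay level with simulated microgravity and the 2 others of its group far below. In log2 units the difference was 0.38 (SE 0.177, edgeR adjusted p = 0.368) over 6 libraries and 0.60 (SE 0.0497, edgeR adjusted p = 0.000821) over the 5 without normal gravity replicate 1. The mean was 203 ± 7.88 CPM in simulated microgravity and 156 ± 37.2 CPM at normal gravity (SD, n = 3 each). Atp6v0d2, the other d isoform, had 0 counts in all 6 libraries.

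The proteolipids c and c'' form the ring that carries protons around. Atp6v0b, which encodes c'' and whose promoter holds 2 copies of CACGTG, had 155, 139 and 163 CPM in simulated microgravity, against 185, 119 and 108 CPM at normal gravity. The library that stands apart was again highest and the other two normal gravity libraries lowest. Atp6v0b differed by 0.15 (SE 0.217, edgeR adjusted p = 0.803) on the log2 scale with 6 libraries and by 0.43 (SE 0.0811, edgeR adjusted p = 0.0115) without normal gravity replicate 1. Atp6v0c, which encodes c, had 176, 215 and 266 CPM in simulated microgravity, against 149, 191 and 179.5 CPM at normal gravity. Its libraries spread widely within simulated microgravity and overlapped normal gravity. Fitted to 6 libraries, its log2 fold change was 0.34 (SE 0.183, edgeR adjusted p = 0.441), and without normal gravity replicate 1 it was 0.24 (SE 0.162, edgeR adjusted p = 0.304), so it was called in neither.

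Atp6v0e and Atp6v0e2 encode the small e subunit of the membrane sector. Atp6v0e had 258, 274 and 266 CPM in simulated microgravity, against 331, 201 and 195 CPM at normal gravity. The log2 fold change was 0.14 (SE 0.22, edgeR adjusted p = 0.829) with 6 libraries and 0.43 (SE 0.0444, edgeR adjusted p = 0.00162) without normal gravity replicate 1. Atp6v0e2 had 20.5, 23.5 and 21.6 CPM in simulated microgravity, against 24.8, 14.1 and 15.1 CPM at normal gravity. In both genes normal gravity replicate 1 was the highest library and the other two of its group were the lowest. With all libraries Atp6v0e2 had a log2 fold change of 0.28 (SE 0.237, edgeR adjusted p = 0.642), and without normal gravity replicate 1 one of 0.58 (SE 0.0966, edgeR adjusted p = 0.00726).

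Accessory proteins help the pump to assemble and to reach its membrane. Atp6ap1, also called Ac45, had 331, 335 and 334 CPM in simulated microgravity, against 242, 294 and 261 CPM at normal gravity. The groups did not overlap, and the spread within simulated microgravity was small. In log2 units the difference was 0.33 (SE 0.109, edgeR adjusted p = 0.214) over 6 libraries and 0.27 (SE 0.0566, edgeR adjusted p = 0.0166) over the 5 without normal gravity replicate 1. Atp6ap2, the prorenin receptor, had 194, 193 and 192 CPM in simulated microgravity, against 161, 170.4 and 182 CPM at normal gravity. Its groups did not overlap either, but the difference was small. Atp6ap2 differed by 0.17 (SE 0.0968, edgeR adjusted p = 0.46) on the log2 scale with 6 libraries and by 0.14 (SE 0.0448, edgeR adjusted p = 0.0664) without normal gravity replicate 1, so it was called in neither. Atp6ap1l had 0 counts throughout.

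Summed over members and divided by gene length, V1 stood at 654, 662 and 699.5 CPM per kilobase in simulated microgravity, against 731, 548 and 532 at normal gravity. V0 stood at 608, 612 and 672 CPM per kilobase in simulated microgravity, against 635, 471 and 451 at normal gravity. Both sums overlapped between groups through normal gravity replicate 1, and its 2 companions lay below every simulated microgravity library. The ratio of the V1 sum to the V0 sum was 1.08, 1.08 and 1.04 in simulated microgravity, against 1.15, 1.16 and 1.18 at normal gravity. That ratio was lower in each simulated microgravity library, including against replicate 1, but without division by length it was 1.19, 1.16 and 1.12 in simulated microgravity, against 1.14, 1.24 and 1.24 at normal gravity, and then the groups overlapped.

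**Figure D3:**
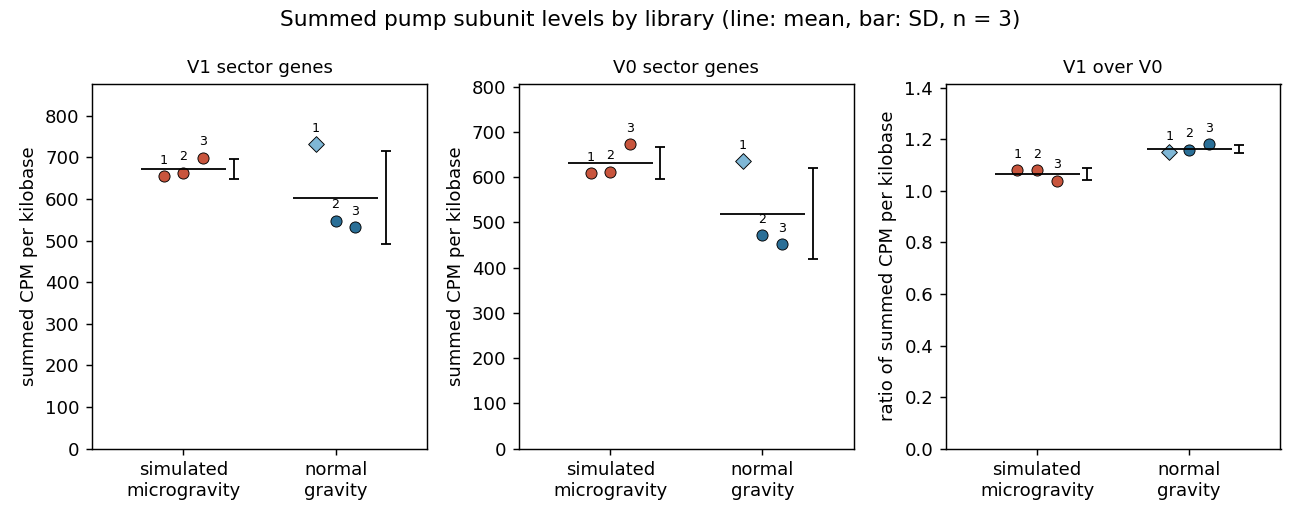
Summed level of V1 and V0 genes (CPM per kilobase), and the ratio of the V1 sum to the V0 sum, per library, with simulated microgravity left of normal gravity, lines at the means and bars of 1 SD (n = 3). Normal gravity replicate 1 has V1 at 731 and V0 at 635 CPM per kilobase, and its 2 companions lie below all simulated microgravity libraries, while the ratio is at most 1.08 in simulated microgravity and at least 1.15 at normal gravity.

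Among the exchangers, Clcn7 (chromosome 17, 25133391 to 25162104, plus strand) encodes ClC-7, the chloride-proton exchanger of lysosomes, and Ostm1 the protein that keeps it stable. Clcn7 had 111, 100.3 and 108 CPM in simulated microgravity, against 75.9, 87.0 and 91.7 CPM at normal gravity, with no overlap. Fitted to 6 libraries, its log2 fold change was 0.33 (SE 0.118, edgeR adjusted p = 0.252), and without normal gravity replicate 1 it was 0.25 (SE 0.0622, edgeR adjusted p = 0.0265). Ostm1 (chromosome 10, 42583822 to 42702459, plus strand) had 153, 136 and 150.1 CPM in simulated microgravity, against 105, 108 and 106 CPM at normal gravity. Here the normal gravity libraries, replicate 1 included, were almost level, and all simulated microgravity libraries lay above them. The log2 fold change was 0.46 (SE 0.1, edgeR adjusted p = 0.0851) with 6 libraries and 0.46 (SE 0.0628, edgeR adjusted p = 0.00394) without normal gravity replicate 1. Its mean was 146 ± 8.85 CPM in simulated microgravity and 106 ± 1.46 CPM at normal gravity (SD, n = 3 each), and DESeq2 with all 6 libraries gave a log2 fold change of 0.46 (adjusted p = 0.00985).

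Of the endosomal exchangers, 1 was called lower and Clcn5 and Clcn6 were not called. Clcn3 (chromosome 8, 60910389 to 60983300, minus strand), which encodes ClC-3 of endosomes and vesicles, had 45.3, 43.3 and 43.3 CPM in simulated microgravity, against 16.5, 61.2 and 52.9 CPM at normal gravity. Normal gravity replicate 1 was by far the lowest library and the other two the highest, so the groups overlapped. With all libraries Clcn3 had a log2 fold change of 0.01 (SE 0.443, edgeR adjusted p = 0.993), and without normal gravity replicate 1 one of -0.37 (SE 0.0781, edgeR adjusted p = 0.0157). It was the 1 member called lower, and its group means lay close with all libraries, at 44.0 ± 1.17 CPM in simulated microgravity and 43.5 ± 23.8 CPM at normal gravity (SD, n = 3 each). The lower call depended on the fit. DESeq2 without normal gravity replicate 1 also called 1 member lower. Limma-voom with sample quality weights called 0 lower, and so did edgeR without that library after a length trend was removed. Clcn6, of late endosomes, had 22.5, 31.0 and 30.6 CPM in simulated microgravity, against 12.7, 34.8 and 32.6 CPM at normal gravity. In log2 units the difference was 0.07 (SE 0.378, edgeR adjusted p = 0.959) over 6 libraries and -0.26 (SE 0.148, edgeR adjusted p = 0.231) over the 5 without normal gravity replicate 1. Clcn5, known for endosomes of the kidney tubule, had 43.9, 41.3 and 28.6 CPM in simulated microgravity, against 15.4, 34.5 and 20.5 CPM at normal gravity. It was called in neither fit, and its libraries spread widely within each group. Clcn5 differed by 0.69 (SE 0.325, edgeR adjusted p = 0.372) on the log2 scale with 6 libraries and by 0.47 (SE 0.27, edgeR adjusted p = 0.244) without normal gravity replicate 1.

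Mcoln1 (chromosome 8, 3500457 to 3515232, plus strand) encodes mucolipin 1, the calcium-permeable channel of lysosomes whose loss causes mucolipidosis. It had 52.8, 44.3 and 45.5 CPM in simulated microgravity, against 29.9, 33.8 and 31.8 CPM at normal gravity. The groups did not overlap, and normal gravity replicate 1 lay close to the others of its group. Fitted to 6 libraries, its log2 fold change was 0.58 (SE 0.121, edgeR adjusted p = 0.0809), and without normal gravity replicate 1 it was 0.54 (SE 0.0954, edgeR adjusted p = 0.00905). Its adjusted p with 6 libraries was the lowest of the 25 members. The mean was 47.6 ± 4.61 CPM in simulated microgravity and 31.9 ± 1.93 CPM at normal gravity (SD, n = 3 each). DESeq2 with all 6 libraries gave 0.57 (adjusted p = 0.011). Its paralogue Mcoln2, which is no member, had 52.9, 49.4 and 52.4 CPM in simulated microgravity, against 25.7, 29.4 and 26.9 CPM at normal gravity and passed with all 6 libraries (log2 fold change 0.92, SE 0.109, edgeR adjusted p = 0.0185).

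By level per kilobase of gene length, Atp6v1g1 stood highest, at 176 CPM per kilobase in simulated microgravity and 186 at normal gravity. Atp6v0b, Atp6ap1, Atp6v1f, Atp6v0d1 and Tcirg1 came next, between 119 and 152 CPM per kilobase in simulated microgravity and between 91.5 and 137 at normal gravity. Atp6v0b and Atp6ap1 both had a mean of 152 CPM per kilobase in simulated microgravity. At normal gravity Atp6v0b had 137 ± 41.3 and Atp6ap1 121 ± 12.1 CPM per kilobase (SD, n = 3 each). The exchangers stood low, with Clcn7 at 26.1 CPM per kilobase in simulated microgravity and 20.8 at normal gravity and Clcn3 at 5.37 CPM per kilobase in simulated microgravity and 5.31 at normal gravity. Mcoln1 stood at 16.5 CPM per kilobase in simulated microgravity and 11.0 at normal gravity.

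Normal gravity replicate 1 lay above both other normal gravity libraries in 12 tested members and below both in 13, and gene length went with the side. In the 6 members of up to 2000 bases its log2 level minus the mean of the other two had a median of 0.73 (0.45 to 0.97), beside 0.53 for all tested genes of that length. In the 9 of 2000 to 4000 bases the median was 0.13, beside 0.09. In the 10 longer than 4000 bases it was -0.52 (-1.78 to 0.30), beside -0.51. Spearman's rho between this difference and length was -0.72 over the 25 members and -0.50 over all 14509 tested genes, as a description over genes that share 1 library. Without that library the members' log2 fold change had a rho of -0.19 with length, and with it 0.26. It was the highest library in short genes such as Atp6v1f and Atp6v0e2 and the lowest in long ones such as Clcn3 and Atp6v1a. After a length trend was removed from the 6-library counts, edgeR called 3.03% of all tested genes higher and 1.77% lower. It then called 2 members higher and 0 lower, Atp6v1b2 with a log2 fold change of 0.32 (adjusted p = 0.0434) and Atp6v0d1 with 0.46 (adjusted p = 0.0265).

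**Figure D4:**
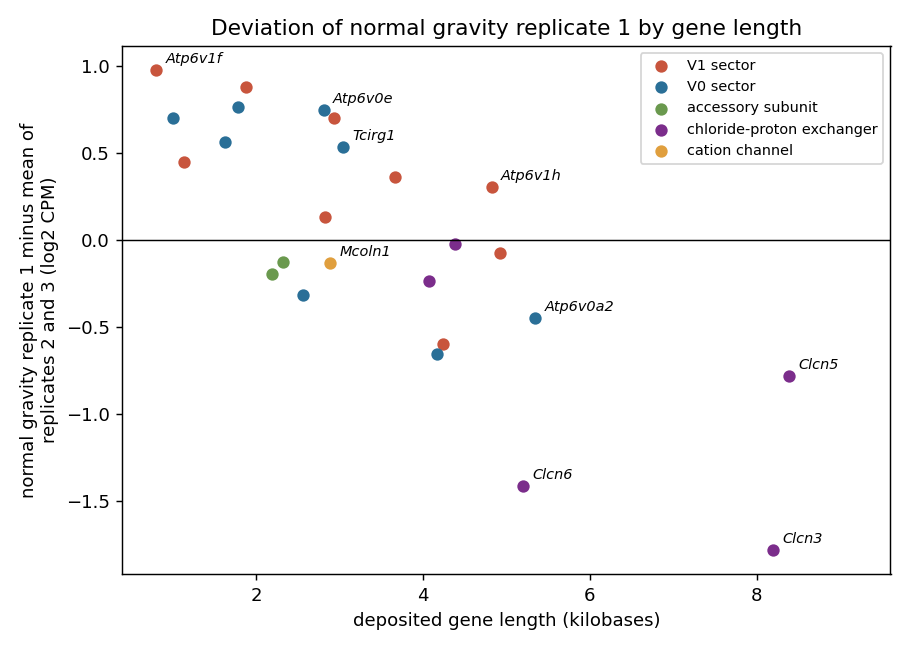
Level of normal gravity replicate 1 minus the mean of the other two normal gravity libraries (log2) against deposited gene length (kilobases) for the 25 tested members, coloured by role. Members of up to 2000 bases lie above 0 and most of those over 4000 bases below it, to -1.78 in Clcn3.

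Other genes of the lysosome were counted from 4 lists. Of 14 tested genes for assembly and control of the pump, 0 passed in edgeR with 6 libraries, against 2 higher at unadjusted p under 0.05, and the median log2 fold change was 0.07. Without normal gravity replicate 1, 4 were higher and 1, Dmxl1, lower. Those with the lowest p were Rilp, which recruits late endosomes to motors (log2 fold change 1.67, SE 0.576, edgeR adjusted p = 0.229), and Wdr7, a partner of the pump in its acidification (log2 fold change 0.77, SE 0.267, edgeR adjusted p = 0.233). Of 20 tested other channels and carriers, 1 was higher and 0 lower (median log2 fold change 0.33), and 9 were higher and 1 lower without that library. The 1 was Mcoln2, described above, and Slc17a5, the sialic acid exporter, came next (log2 fold change 0.53, SE 0.099, edgeR adjusted p = 0.0649).

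Of 18 tested genes listed for nutrient sensing on the lysosome surface, 0 passed with 6 libraries in edgeR, against 5 higher at unadjusted p under 0.05. Without normal gravity replicate 1, 9 were higher and 1, Mitf, was lower. Flcn, a GTPase activator for RagC and RagD, had 37.4, 37.5 and 37.6 CPM in simulated microgravity, against 19.4, 16.1 and 25.5 CPM at normal gravity, without overlap (log2 fold change 0.89, SE 0.183, edgeR adjusted p = 0.0796). Rragc, which encodes RagC, came next (log2 fold change 0.36, SE 0.104, edgeR adjusted p = 0.159). Tfeb had 15.5, 13.4 and 17.5 CPM in simulated microgravity, against 23.9, 9.71 and 12.9 CPM at normal gravity, with overlap. Of 25 acid hydrolases and membrane proteins, 2 were higher and 0 lower with 6 libraries, and 19 were higher and 2 lower without that library. Those past the threshold were Gla, alpha-galactosidase A (log2 fold change 0.86, SE 0.103, edgeR adjusted p = 0.0185), and Lamp2, a main protein of the lysosome membrane (log2 fold change 0.66, SE 0.0953, edgeR adjusted p = 0.035). Gla had 436, 407 and 446 CPM in simulated microgravity, against 253, 234 and 222 CPM at normal gravity, and Lamp2 had 561, 522 and 581 CPM in simulated microgravity, against 344, 362 and 351 CPM at normal gravity, in both cases without overlap.

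Of the osteoclast markers, Ctsk, a collagen-degrading protease, had 3300.1, 2978 and 3554 CPM in simulated microgravity, against 1234, 777 and 726 CPM at normal gravity and passed with 6 libraries (log2 fold change 1.85, SE 0.227, edgeR adjusted p = 0.0201). Mmp9, a matrix protease on the same osteoclast list, had 12.2, 13.1 and 12.7 CPM in simulated microgravity, against 109.5, 36.0 and 39.7 CPM at normal gravity, without overlap. Mmp9 was called lower without normal gravity replicate 1 (log2 fold change -1.58, SE 0.082, edgeR adjusted p = 0.000205), and not with 6 libraries (log2 fold change -2.29, SE 0.454, edgeR adjusted p = 0.0735). Dcstamp, needed for osteoclast fusion, had 0.324, 0.0661 and 0.277 CPM in simulated microgravity, against 1.35, 0.921 and 0.619 CPM at normal gravity, also without overlap (log2 fold change -2.08, SE 0.599, edgeR adjusted p = 0.162). Among markers of other cells, the adjusted threshold with 6 libraries was also passed by Tubb3, a tubulin of neurons, with 22.5, 23.3 and 23.9 CPM in simulated microgravity, against 2.7, 1.57 and 1.45 CPM at normal gravity (log2 fold change 3.61, SE 0.269, edgeR adjusted p = 0.0047), and by Pdgfrb of fibroblasts and stellate cells (log2 fold change 1.36, SE 0.206, edgeR adjusted p = 0.0396). The summed level of 5 neuron markers was between 23.2 and 25.3 CPM in simulated microgravity and between 1.81 and 3.33 CPM at normal gravity, with Map2 at 0. Most of it came from Tubb3, and Snap25 and Syt1 had at most 6 counts in a library. The sum of 8 fibroblast and stellate cell markers was between 74.0 and 78.8 CPM in simulated microgravity and between 47.4 and 65.0 at normal gravity, with Lum at 0. Most of that sum came from Pdgfra. The 4 tested genes of that list differed in sign, with 6-library log2 fold changes of 0.385 (Pdgfra), 1.36 (Pdgfrb), -0.328 (Col1a1) and 0.048 (Acta2). The 4 kidney intercalated cell markers summed to at most 1.32 CPM, with Slc4a1 and Rhcg at 0, and the 10 hepatocyte markers to between 25.9 and 33.1 CPM in simulated microgravity and between 42.3 and 54.9 CPM at normal gravity, nearly all from Trf. Among the macrophage markers Lyz2 had 3940.5, 3543 and 4673 CPM in simulated microgravity, against 3992, 944 and 993 CPM at normal gravity, so that normal gravity replicate 1 stood with simulated microgravity. The part of these genes in the values of the pump was not tested.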

How the data were processed

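RNA of 6 samples of NCTC 1469 cells was sequenced, 3 of simulated microgravity and 3 of normal gravity. The tools fastp 2.0 and HISAT2 2.1.0 are named, per the submitters' processing notes. How reads were counted (tool, strand, several matches) and against which build and annotation is not given in the sources used here. Whole-number counts of reads per gene make up the table deposited by the authors, with no normalization visible in the values. Start and end of 97.1% of its genes shared with GENCODE M21 equal that annotation of GRCm38, so coordinates are given in that assembly. Of 53801 lines, 1 names no gene and was left out. Replicate numbers are those of the count columns.

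Counts were analysed with edgeR 4.0.16 in R 4.3.3: filterByExpr, TMM, and the two-sided quasi-likelihood test. P-values were adjusted by Benjamini-Hochberg over every tested gene, with 0.05 as the threshold. Log2 fold changes have simulated microgravity on top, and their SE is their size over the square root of F. CPM are TMM scaled, and levels per kilobase use the deposited gene length. Limits from 3 counts cover counting error only. Alternatives used DESeq2 1.42.0 and limma 3.58.1, other scalings, no filter, a gene length correction (loess, span 0.3), a replicate block and each library left out. The fits were tested on simulated data with planted differences. With 6 libraries, 1 out of 67 genes planted at a ratio of 1.5 passed. At a ratio of 2, 11 out of 67 passed, and at a ratio of 4, 54 out of 66. Without normal gravity replicate 1, these numbers were 12, 51 and 64. Genes with no planted difference passed in 3 cases with 6 libraries and in 15 without that library. A missing call with 6 libraries thus says little about differences of 2-fold or less. The simulation planted differences in few of its 14209 or 14491 tested genes. It drew each gene independently, with no library that stood apart by gene length. In the measured data the fit without normal gravity replicate 1 called 4559 genes. The simulated pass and false call numbers for that fit therefore do not carry over to it. The members and lists were chosen with earlier results of these data known. Every member past the threshold in either fit is given by library, and of each list the genes past the threshold and the 2 with the lowest p. Mcoln2 and Tfeb beside members, and single markers, were chosen after their values were seen.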

Additional observations from a re-analysis of the deposited data

How the results depend on the processing

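All alternatives were compared with the edgeR fit of 6 libraries, which called 0 members higher and 0 lower and 221 of all genes. Scaling by DESeq2 size factors or by library size, no filter, limma-voom and a replicate block also called 0 members in either direction. DESeq2 called 3 members higher and removal of the length trend 2. Leaving out each library gave 0 to 17 higher and 0 to 1 lower, and both maxima came without normal gravity replicate 1. Added after seeing the data, DESeq2 without that library gave 17 higher and 1 lower. Limma-voom with sample quality weights gave 18 higher and 0 lower, and the length trend removed without that library 17 higher and 0 lower. Over all genes DESeq2 without that library called 2419 higher and 2410 lower. It fitted 23084 genes, a base that is not limited to genes with an adjusted p, unlike that of the DESeq2 shares with 6 libraries. Limma-voom with those weights called 2525 higher and 2273 lower of 14509, and the length trend removed 2274 higher and 2253 lower of 14809. The cause of the differences between fits was not tested.

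Over all genes, no filter gave 125 calls, DESeq2 962, the replicate block 0, the length trend removed 696, and leaving out a library 3 to 4559. The 3 added fits gave 4829, 4798 and 4527. Of the 4 lysosomal lists, with 3 higher and 0 lower, DESeq2 gave 10 and 1, the replicate block 0 higher, the length trend removed 12 and 1, and leaving out a library 0 to 41 higher and 0 to 5 lower. The added fits gave 42, 42 and 43 higher and 7, 5 and 6 lower. The log2 fold change kept its sign in 20 of 25 members. Leaving out a library gave -0.144 to 0.441 for Atp6v1f, -0.164 to 0.0897 for Atp6v1g1, -0.000945 to 0.43 for Atp6v0e, -0.373 to 0.341 for Clcn3 and -0.264 to 0.306 for Clcn6. The length trend removed gave Atp6v1g1 0.0443, and the added fits 0.084, 0.0718 and 0.0302. Clcn3 stood at -0.0371 with library size scaling, at -0.000103 with DESeq2 and at -0.379, -0.354 and -0.218 in the added fits, and Clcn6 at -0.271, -0.312 and -0.219.

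The replicate numbers are not shown to pair the samples. The deviations of libraries with the same number from their group means correlated at -0.0733, 0.0249 and -0.0898, and with the replicate block 0 of 14509 genes passed. Depth limits Atp6v1g2, with at most 36 counts in a library, and the 7 members that were not tested.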
